A study of Mus musculus with 1078 samples.

Results

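Natural killer (NK) cells were 53 of the 240 CD45+ cells, and of 1078 cells in all, that the authors kept from a single-cell RNA sequencing study of GL261 tumors. They were taken by the label NK that was deposited for each cell. All 53 lay in the authors' cluster 8, no cell of that cluster had another label, and no cell outside the 4 CD45+ plates was called NK. GL261 is a mouse glioma line, grown here in the brain of C57Bl/6 mice. The paper used mice of both sexes, 6 to 8 wk old at the start of experiments, but names no sex for these plates. Control mice received vehicle and IgG. The others received losartan (an angiotensin receptor blocker, 60 mg/kg/day), anti-PD1 antibody (200 μg per mouse in 3 doses, every 3 d) or losartan+anti-PD1, with losartan begun 1 wk before the antibody, and tumors were taken after the third antibody dose and/or 2 wk of losartan. Viable CD45+ cells without surface CD3 were sorted 1 per well onto 1 plate per treatment, and full-length cDNA was made by Smart-seq2. The labels tie no cell to an animal, so each treatment was counted as 1 sample. No test was therefore run, differences between treatments have no replicate check, and a treatment and its plate cannot be told apart. Intervals are exact (Clopper-Pearson) 95% intervals, which cover counting error over cells only.

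NK cells are innate lymphocytes that kill stressed, infected or transformed cells without prior priming. They read a target through activating receptors, such as NKp46 and NKG2D, and inhibitory receptors for MHC class I, which in the mouse include members of the Ly49 family, and they kill by releasing perforin and granzymes. In the mouse they mature from CD27+ cells through a stage with both CD27 and the integrin CD11b to CD11b+ cells that gain KLRG1, and interleukin-15 sustains them through a receptor that contains the chain encoded by Il2rb.

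The label was checked against 6 defining genes: Ncr1 (NKp46), Klrb1c (NK1.1), Gzma (granzyme A), Prf1 (perforin), Klra8 (Ly49H) and Il2rb. All 6 were above 0 in 30 of 53 NK cells, and at least 3 were above 0 in 52. The remaining cell, from losartan+anti-PD1, had 2 of the 6. Of the other CD45+ cells, which were 79 microglia, 73 other myeloid cells, 33 B cells and 2 T cells, 2 cells had at least 3. Levels are given as TP100K, the expected counts of a gene scaled so that each cell sums to 100000. Gzma was above 0 in 52 of 53 NK cells (lowest 0, median 824, highest 2834 TP100K) and in 3 other cells. Ncr1 was above 0 in 45 of 53 (0, 81.2 and 297 TP100K) and in 2 other cells. Il2rb was above 0 in 53 of 53 (36.8, 202.1 and 555 TP100K) and in 9 other cells. Since the cells were clustered on expression, these levels describe the label and do not test it. Genes that define T cells were mostly low. Of 12 such genes, 10 had a mean under 1 TP100K over the NK cells. Cd3e, Cd3g, Cd4, Cd5 and Cd6 were at 0 in all 53 NK cells, and Cd3d reached at least 5 TP100K in 1 of them. Lower values of Cd3d were more common. Cells with Cd3d, Cd3e and Cd3g all at 0 were 26 of 36 with losartan+anti-PD1 and 7 of 10 in the control. Summed T cell markers reached 163.6 TP100K in a losartan+anti-PD1 cell.

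The promoters of Ncr1, Gzma, Gzmb (granzyme B) and Prf1 are shown because these genes are among the 7 that stood highest in NK cells over the other CD45+ cells, and because Runx3, a factor of the RUNX family known to act in NK cells, was above 0 in 47 of 53 NK cells. Runx3 was also above 0 in 56.7% of the other CD45+ cells. In GRCm38 (GENCODE vM21), the genes are Ncr1 (ENSMUSG00000062524, chromosome 7, 4337724 to 4345164), Gzma (ENSMUSG00000023132, chromosome 13, 113093825 to 113100981), Gzmb (ENSMUSG00000015437, chromosome 14, 56258838 to 56262260) and Prf1 (ENSMUSG00000037202, chromosome 10, 61297833 to 61304680). The 250 bases before each RefSeq transcription start (GRCm38.p6) are printed from 5′ to 3′ on the strand of the gene, and capitals mark the RUNX core TGTGGT or its reverse complement ACCACA:
Ncr1 (chr7:4337465-4337714, plus strand): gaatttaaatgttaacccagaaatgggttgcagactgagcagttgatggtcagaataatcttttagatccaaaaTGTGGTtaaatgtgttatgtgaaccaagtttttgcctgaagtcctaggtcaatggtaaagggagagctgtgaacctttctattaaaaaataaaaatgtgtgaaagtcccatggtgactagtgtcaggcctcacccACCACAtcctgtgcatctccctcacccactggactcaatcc
Gzma (chr13:113100982-113101231, minus strand): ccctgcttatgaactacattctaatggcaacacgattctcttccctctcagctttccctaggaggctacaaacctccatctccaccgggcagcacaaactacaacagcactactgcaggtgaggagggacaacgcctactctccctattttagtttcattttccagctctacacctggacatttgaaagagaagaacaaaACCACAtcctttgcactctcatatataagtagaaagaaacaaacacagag
Gzmb (chr14:56262335-56262584, minus strand): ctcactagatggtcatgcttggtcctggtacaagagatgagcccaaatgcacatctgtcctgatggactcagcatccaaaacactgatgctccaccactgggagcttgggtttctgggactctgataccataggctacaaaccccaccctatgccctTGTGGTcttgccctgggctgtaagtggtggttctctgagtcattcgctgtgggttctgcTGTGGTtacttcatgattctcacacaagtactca
Prf1 (chr10:61297586-61297835, plus strand): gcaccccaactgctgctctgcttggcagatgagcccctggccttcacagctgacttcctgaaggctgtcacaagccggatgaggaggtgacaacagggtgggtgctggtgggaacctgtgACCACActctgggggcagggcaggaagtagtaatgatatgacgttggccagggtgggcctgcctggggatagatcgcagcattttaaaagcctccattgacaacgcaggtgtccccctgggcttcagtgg
The core occurred in all 4 windows, with 2 copies in Ncr1 (the nearer 41 bases before the start of transcription) and in Gzmb (93 and 34 bases) and 1 copy in Gzma (50 bases) and in Prf1. None of these copies overlapped a match of the other 3 motifs searched on both strands, the T-box core TCACAC, the ETS core AGGAAG and the STAT motif TTCNNNGAA. RefSeq windows of 250 bases before to 50 bases after the start were given for 16 of the 20 genes that led NK cells, 21 windows in all. Of these, 9 (42.9%) held the RUNX core, against 16.8% of all 32851 windows. The T-box core was in 38.1% of them against 14.5% of all, the ETS core in 38.1% against 35.4%, and the STAT motif in 19.05% against 8.30%. A match describes the letters of a window and does not show binding, and windows of 1 gene can overlap.

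NK cells made up 36 of 73 CD45+ cells with losartan+anti-PD1 (49.3%, interval 37.4 to 61.3). In the control they were 10 of 70 (14.3%, 7.07 to 24.7), with losartan 5 of 71 (7.04%, 2.33 to 15.7), and with anti-PD1 2 of 26 (7.69%, 0.946 to 25.1). The interval of the combination did not overlap those of the other treatments, which overlapped each other. A share can differ through the number of NK cells or of the other cells on a plate. Microglia were 13 of 73 cells with losartan+anti-PD1 (17.8%) and 28 of 70 in the control (40%), and other myeloid cells 11 of 73 (15.1%) and 25 of 70 (35.7%). Among lymphoid cells alone (NK, B and T cells), NK cells were 36 of 49 (73.5%, 58.9 to 85.1) with the combination and 10 of 17 (58.8%, 32.9 to 81.6) in the control, and these intervals overlapped. They were 5 of 7 with losartan (71.4%, 29.04 to 96.3) and 2 of 15 with anti-PD1 (13.3%, 1.66 to 40.5), a plate on which 13 of 26 cells were B cells.

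**Figure D1:**
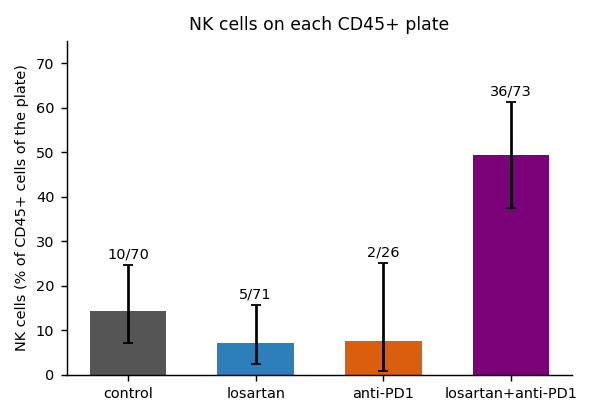
NK cells as a percent of the CD45+ cells of each plate (y axis) by treatment (x axis), with exact 95% intervals for counting error over cells. The bar of losartan+anti-PD1 stands at 49.3%, and those of control, losartan and anti-PD1 at 14.3%, 7.04% and 7.69%.

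Genes of granzymes and perforin stood highest in NK cells over the other CD45+ cells. The ratio of mean levels, as log2 after adding 1 TP100K, was computed against the other CD45+ cells for 5981 genes detected in at least 25% of cells of 1 or both kinds, of which 556 (9.3%) were at least 2-fold higher in NK cells and 1012 (16.9%) at least 2-fold lower. Scaling to the 75th percentile of a cell in place of its sum gave 333 and 1354 genes and moved the median of all genes from −0.00 to −0.33. The authors clustered the cells on genes such as these, so the ratios describe the cluster and support nothing. The 10 highest were Gzma (8.61), Gzmb (6.76), Prf1 (6.58), Klrb1c (6.53), Il2rb (6.43), Nkg7 (6.40), Ncr1 (6.24), Klra8 (6.17), Klra7 (6.08) and Klra18 (5.84). The next 10 were Ms4a4b, the kinase gene Txk, the cathepsin W gene Ctsw, Klre1, the Fas ligand gene Fasl, Klra9, the adaptor gene Sh2d2a, Klra4, the serine protease inhibitor gene Serpinb9b and the interferon-γ gene Ifng. Within single plates, the median log2 ratio of these 20 genes was 5.34 in the control, 6.45 with losartan and 5.23 with losartan+anti-PD1, but Serpinb9b stood at 0.03 in the control and Ifng at 0.85 with losartan.

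Gzma, Gzmb and Prf1 were above 0 together in 43 of 53 NK cells, and 1 cell, from losartan+anti-PD1, had none of them. Per kilobase of the longest annotated transcript, mean levels in NK cells were 872 TP100K for Gzma, 508 for Gzmb, 478 for the chemokine gene Ccl5, 282.4 for the granule membrane gene Nkg7 and 88.8 for Prf1. Granzymes A and B stood almost alone among the granzymes. Gzmd, Gzme, Gzmf, Gzmg and Gzmm were at 0 in all 53 cells, which allows a share of up to 5.66% of cells, Gzmk was above 0 in 2 of 53, and Gzmc in 6 of 53 (2 of 10 control and 4 of 36 losartan+anti-PD1 cells). Fasl, which serves another route of killing, was above 0 in 37 of 53 NK cells and in 1 other cell, and 32 of 53 cells had both Fasl and Prf1. Serpinb9, which protects the killer from its own granzyme B, was above 0 in 47 of 53 (lowest 0, median 106.9, highest 634 TP100K).

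Eomes and Tbx21 encode the T-box factors that direct NK cell identity and maturation. Tbx21 was above 0 in 34 of 53 cells and Eomes in 29 of 53, 50 had either and 13 had both. Eomes reached at least 5 TP100K in 18 of 53 NK cells and in 0 of the other CD45+ cells. Id2, a repressor needed by innate lymphocytes, was above 0 in 53 of 53. Genes of type 1 innate lymphoid cells and of tissue residency differed from each other. Itgae (CD103) and Tmem176a were at 0 in all 53, Cxcr6 and Cd200r1 were above 0 in 1 cell each, and Itga1 (CD49a) in 9 of 53. The signaling regulator genes Rgs1 and Rgs2 were above 0 in 44 and 25 of 53, the activation marker gene Cd69 in 29, and Tnfsf10 (TRAIL) in 47, of which 9 reached at least 5 TP100K. The list summed to a median of 154.3 TP100K in the control and 132.4 with losartan+anti-PD1. Itga2 (CD49b), an integrin gene of conventional NK cells, was above 0 in 23 of 53.

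Among activating receptors, Klrk1 (NKG2D) was above 0 in 53 of 53 NK cells (lowest 1.56, median 138.4, highest 421 TP100K). Fcer1g, the gene of a signal adaptor of NKp46 and CD16, was above 0 in 53 of 53, and Tyrobp (DAP12), the adaptor of activating Ly49 receptors, in 50 of 53. Klrd1 (CD94) and Klrc1 (NKG2A) form an inhibitory pair that reads the class I molecule Qa-1. Klrd1 was above 0 in 47 of 53 cells and Klrc1 in 42 of 53, of which 23 reached at least 5 TP100K, and 36 cells had both. Klrc1, Klrc2 and Klrc3 are close paralogs, so low values of each can be shares of reads from another. Of the checkpoint receptors, Pdcd1, the gene of PD-1, was at 0 in all 53 NK cells (up to 5.66% allowed). Havcr2 (TIM-3) was above 0 in 1 of 53 NK cells but in 87 other cells, whereas Tigit reached at least 5 TP100K in 23 of 53 NK cells and in 0 of the others. Ctla4 was above 0 in 8 of 36 cells with losartan+anti-PD1 (22.2%, 10.1 to 39.2) and at 0 in the other 17 NK cells, and 0 of 10 control cells allows up to 30%. Agtr1a and Agtr1b, the genes of the receptor that losartan blocks, were above 0 in 1 and 0 of 53 NK cells, and that 1 value was 0.466 TP100K.

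The Ly49 genes differed from cell to cell within each treatment. The 12 Klra genes tallied lie within 1.42 Mb of chromosome 6 (129831154 to 131247362) and were counted at a level of at least 5 TP100K, since reads can be shared among them. By that measure an NK cell had a median of 4 Ly49 genes (range 0 to 7), and 3 of 53 had none. Klra7 (Ly49G) reached this level in 43 of 53 cells, Klra8 in 35 of 53, Klra4 (Ly49D) in 30 of 53 and Klra9 (Ly49I) in 24 of 53. Klra8 ranged from 0 to 398 TP100K around a median of 14.7. It was 0, 7.31, 14.7, 273.6 and 338 TP100K in the 5 losartan cells, and 273.1 and 289 in the 2 anti-PD1 cells. Of the stretches of 31 bases in the transcripts of each gene, the share found in another Klra gene was 29.3% for Klra8, 24.7% for Klra7, 13.9% for Klra4, 57.6% for Klra9, 43.5% for Klra3 and 62.04% for Klra10, so the last 3 of these are the least certain. Klra18 is not among the GENCODE vM21 transcripts, so stretches it shares with these genes are not in the shares given. The source of its reads could not be checked. It was left out of the 12 genes tallied, although it was above 0 in 41 of 53 NK cells. The 12 do include the pseudogene Klra13-ps.

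**Figure D2:**
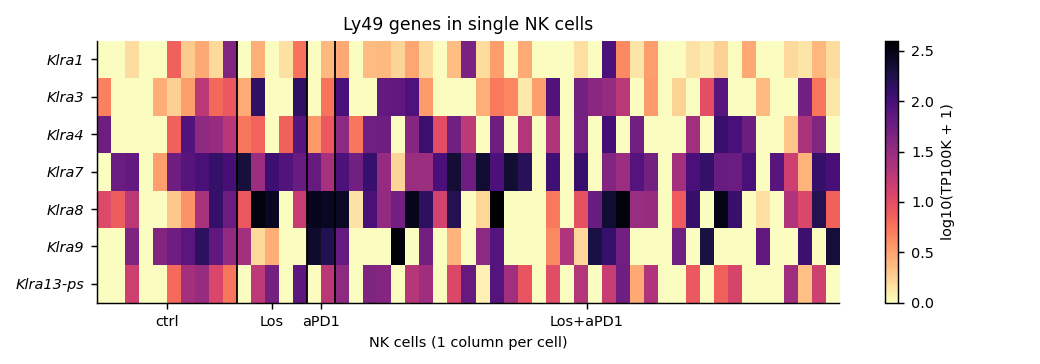
Levels of 7 Ly49 genes (rows) in the 53 NK cells (columns, grouped by treatment: ctrl, control; Los, losartan; aPD1, anti-PD1), coloured by log10(TP100K + 1). Klra7 reached at least 5 TP100K in 43 of 53 cells, and Klra8 and Klra9 are high in some and at 0 in other losartan+anti-PD1 cells.

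Losartan+anti-PD1 (36 cells) was then compared with the control (10 cells). These cells had medians of 2704 and 2996 genes and of 235488 and 291472 expected counts. Of 5306 genes detected in at least 25% of cells of 1 or both treatments, 910 (17.2%) were at least 2-fold higher with the combination and 762 (14.4%) at least 2-fold lower, and the median log2 ratio was 0.03. These shares are the background against which each list is read. Of the 6 genes used to check the label, 2 (Klra8 at 1.66 and Prf1 at 1.35) were at least 2-fold higher and 0 were lower. Ncr1 had a median of 76.3 (0 to 297) TP100K with the combination and 83.7 (0 to 181.4) in the control (log2 ratio of means −0.02). Il2rb had a median of 203.01 (36.8 to 419) and 205.8 (88.8 to 323) TP100K (−0.09), and Klrb1c 102.5 (0 to 282.9) and 210.3 (52.3 to 314) TP100K (−0.68). The ranges overlapped for these last 3 genes, although the median of Klrb1c was lower with the combination.

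Genes of late maturation were mostly higher with the combination. Of 16 mature-stage genes, 15 passed the filter on cells and 12 of these were at least 2-fold higher with losartan+anti-PD1, 0 were at least 2-fold lower, and the median log2 ratio was 1.80, where 17.2% of all genes were that much higher and their median was 0.03. Of the 15, 5 passed only through losartan+anti-PD1, so that they had to differ. Among the 10 that passed through both treatments, 7 were at least 2-fold higher and 0 lower, where 13.3% and 9.86% of all such genes were, and the median was 1.58. S1pr1 did not pass. The lists were chosen with earlier results of these data known, so these counts describe the cells and test nothing. Of 12 immature-stage genes 8 passed, with 1 higher (Cd27, means 8.55 and 3.04 TP100K), 1 lower (Ltb, 6.12 and 13.3) and a median of −0.07. Cd27 passed only through the combination and Ltb only through the control. Among the 4 immature-stage genes that passed through both treatments, 0 were higher, 0 lower and the median was −0.35. Without the highest cell of each treatment the ratio of Ltb turned from −1.01 to 0.23.

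Klrg1, an inhibitory receptor gene, was above 0 in 10 of 36 cells with losartan+anti-PD1 (27.8%, 14.2 to 45.2; highest 107.7 TP100K) and in 0 of 10 control cells, which allows up to 30%. Klrg1 was low in some of the 10, with values of 0.459, 1.33 and 2.43 TP100K. It was above 0 in 1 of 5 losartan cells, at 0.284 TP100K, and in 0 of 2 anti-PD1 cells. Itgam (CD11b) was above 0 in 20 of 36 cells (55.6%, 38.1 to 72.1; highest 130.5 TP100K) and in 3 of 10 control cells (30%, 6.67 to 65.2; highest 39.98), with means of 20.03 and 4.47 TP100K. The shares these counts allow overlapped for both genes. Itgam was 0, 0, 0, 55.1 and 197.5 TP100K in the losartan cells. Itgb2 (CD18), the partner chain of CD11b, was above 0 in 24 of 36 and 4 of 10 cells, with means of 44.9 and 17.7 TP100K. Cx3cr1 and S1pr5 encode receptors that guide mature NK cells between marrow, blood and tissue. S1pr5 was above 0 in 10 of 36 and 2 of 10 cells (means 6.70 and 0.247 TP100K), and Cx3cr1 in 15 of 36 and 3 of 10 (8.06 and 0.627), but Cx3cr1 reached at least 5 TP100K in 3 of 36 and 1 of 10 cells, and 1 cell held 70.96% of its signal in the combination. Ly6c2, a surface marker of mature NK cells, was above 0 in 13 of 36 and 1 of 10 cells, and Spn (CD43) had a log2 ratio of −0.13.

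Zeb2, Prdm1 (BLIMP-1) and Irf8 are transcription factors of NK maturation and effector function. Zeb2 was above 0 in 16 of 36 cells with the combination and reached at least 5 TP100K in 13 of them (highest 163.8). In the control its values above 0 were 0.210, 1.48 and 3.56 TP100K, so that 0 of 10 cells reached 5. Prdm1 reached this level in 14 of 36 (highest 112.98) and 1 of 10 (30.97). Irf8 had a median of 173.7 (0 to 558) TP100K with losartan+anti-PD1 and 41.1 (0 to 258.8) in the control (log2 ratio 1.38), and the ranges overlapped. In the losartan cells Irf8 was 3.21, 12.1, 149.1, 182.3 and 284.3 TP100K, and in the anti-PD1 cells 1.11 and 27.1. Klf2, a factor that keeps lymphocytes in circulation, had a lower mean with the combination, with means of 8.25 and 12.4 TP100K (log2 ratio −0.54).

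Gzmb, Cma1 and Serpinb9b are the mature-stage genes of proteases and their inhibitors. Cma1 (ENSMUSG00000022225, chromosome 14, 55941451 to 55944675), a chymase gene on the chromosome of Gzmb, was above 0 in 9 of 36 cells with losartan+anti-PD1 (25%, 12.1 to 42.2; highest 232.9 TP100K) and at 0 in the other 17 NK cells. Serpinb9b (ENSMUSG00000021403, chromosome 13, 33027416 to 33041884) reached at least 5 TP100K in 11 of 36 (highest 190.03) and in 0 of 10 control cells (highest 0.229). It was 0, 0, 0, 53.4 and 124.8 TP100K in the losartan cells and 0 and 95.9 in the anti-PD1 cells, so some cells of every treatment but the control had it at that level. Serpinb6b, a serpin gene of the same chromosome outside this list (ENSMUSG00000042842, chromosome 13, 32965209 to 32979067), had a median of 46.8 (0 to 450.1) TP100K with the combination and 5.06 (0 to 129.6) in the control. In the losartan cells it was 68.1, 70.2, 92.5, 220.6 and 340.2 TP100K, each above the control median, and in both anti-PD1 cells it was 0. Gzmb had means of 806 and 787 TP100K with the combination and in the control (log2 ratio 0.03), and medians of 635 and 231.5.

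**Figure D3:**
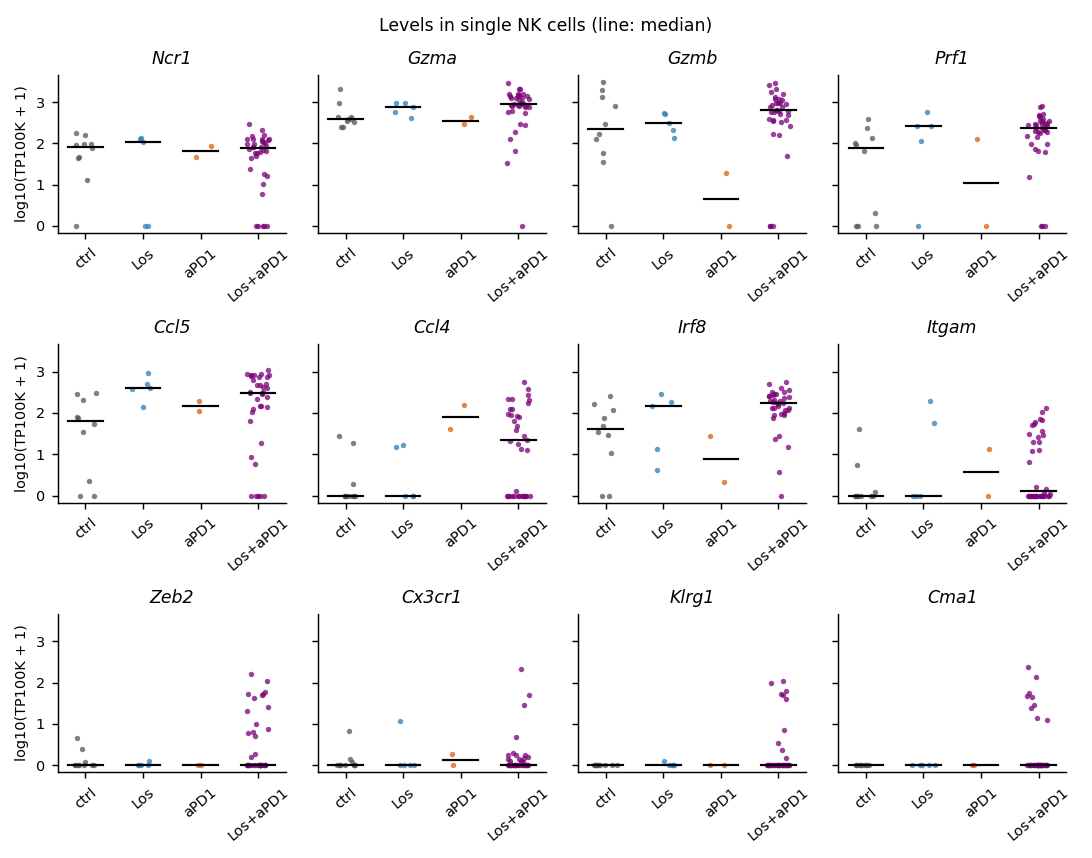
Level of 12 genes in each NK cell (y axis, log10(TP100K + 1)) by treatment (x axis: ctrl, control; Los, losartan; aPD1, anti-PD1), with 1 point per cell and a line at the median. Ncr1 overlaps across treatments, whereas Klrg1 and Cma1 are at 0 in all 10 control cells and above 0 in 10 and 9 losartan+anti-PD1 cells.

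Counted cell by cell, 2 to 14 of the 16 mature-stage genes (median 8) were above 0 with losartan+anti-PD1, and 4 to 8 (median 6) in the control. Losartan cells had 5 to 10 (median 7) and both anti-PD1 cells had 7. The treatments overlapped, and 14 of 36 cells of the combination (38.9%) had more than the 8 of the highest control cell. The median number of all genes detected was 2680.5 in these 14 cells and 2704 in the other cells of the combination. With each cell thinned to 50000 counts, which left 34 and 10 cells, the medians were 7 and 5 (ranges 2 to 14 and 4 to 7). Of the 12 immature-stage genes, 0 to 7 (median 3) were above 0 with losartan+anti-PD1 and 1 to 7 (median 5) in the control, which overlap. Losartan cells had 2 to 7 (median 4) and the anti-PD1 cells 1 and 5, and the thinned medians were 2.5 with the combination and 4 in the control. In the combination, late genes shared cells to different extents. Of the 10 cells with Klrg1, 7 had Cma1 (70%, and 77.8% of the 9 cells with Cma1), 8 had Itgam (80%, and 40% of the 20 cells with Itgam) and 7 had Zeb2 (70%, and 43.8% of 16). The fewest shared cells were 3, for Prdm1 with Ly6c2 (17.6% of 17 and 23.1% of 13) and for S1pr5 with Prdm1 (30% of 10 and 17.6% of 17). By Cd27 and Itgam, the pair used to stage NK cells, 7 of 36 cells with the combination had Cd27 alone, 6 both, 14 Itgam alone and 9 neither. In the control 2 of 10 had Cd27 alone, 0 both, 3 Itgam alone and 5 neither. A stage with both was thus seen in 16.7% (6.37 to 32.8) and 0% (up to 30% allowed), which overlap.

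**Figure D4:**
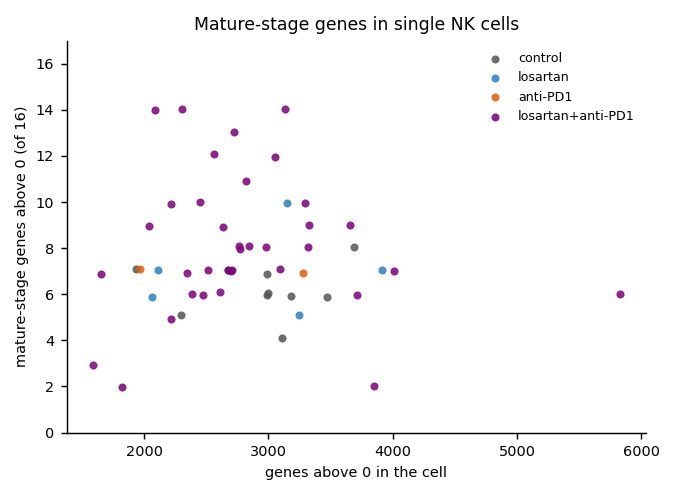
Number of the 16 mature-stage genes above 0 in each NK cell (y axis) against the number of all genes above 0 in that cell (x axis), coloured by treatment. Control cells lie between 4 and 8, and 14 of 36 losartan+anti-PD1 cells lie above 8.

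Of 11 NK cell cytokine and chemokine genes that passed, 3 through 1 treatment only, 5 were at least 2-fold higher with the combination and 2 lower (Il16 and Ltb), with a median of 0.60. Ccl5, a chemokine gene, also on the mature-stage list, had a median of 301 (0 to 1110.4) TP100K with losartan+anti-PD1 and 63.03 (0 to 311) in the control (log2 ratio 1.80). It was 139.4, 379.6, 398, 515 and 904 TP100K in the losartan cells, each above the control median, and 110.9 and 198.4 in the anti-PD1 cells. The ranges overlapped. Ccl4 was above 0 in 23 of 36 cells (63.9%, 46.2 to 79.2; highest 553 TP100K) and in 3 of 10 control cells (30%, 6.67 to 65.2; highest 27.3). Its log2 ratio of 3.85 was the fifth highest of all 5306 genes, although the intervals of the shares overlapped. Ccl3, a related chemokine gene that passed only through the combination, had means of 46.8 and 11.5 TP100K. Xcl1, a chemokine gene that draws dendritic cells, had a lower mean with the combination (10.1 and 15.5 TP100K, log2 ratio −0.57) and was above 0 in 15 of 36 and 6 of 10 cells. Ifng was above 0 in 16 of 36 and 6 of 10 cells (means 29.9 and 19.3 TP100K), in 1 of 5 losartan cells and in 0 of 2 anti-PD1 cells. Tnf, Il10, Csf1, Lta and Areg were at 0 in all 53 NK cells.

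Of 23 granule and killing genes, 14 passed, 2 were at least 2-fold higher (Prf1 and Serpinb6b), 0 were lower, and the median was 0.07. Prf1 had a median of 233.3 (0 to 810.3) TP100K with losartan+anti-PD1 and 78.5 (0 to 384) in the control (log2 ratio 1.35), and was above 0 in 33 of 36 and 7 of 10 cells. It was 0, 110.5, 256.9, 262.3 and 591 TP100K in the losartan cells and 0 and 124.7 in the anti-PD1 cells. Perforin RNA thus overlapped between all 4 treatments. Gzma had a median of 904 (0 to 2834) and 392 (247.2 to 2068) TP100K (log2 ratio 0.76), and Nkg7 249.9 (50.3 to 615) and 208.9 (36.4 to 395) (0.48).

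Receptor genes had no common direction. Of 13 activating receptor genes that passed, 3 were at least 2-fold higher (Klra8, Klrc2 and Klrc3), 1 was lower and the median was −0.02, and 2 of the 13 passed only through the control. Klra8, which in this strain encodes a receptor for a viral protein, had a median of 16.5 (0 to 398) and 8.41 (0 to 130.8) TP100K. Cd226 (DNAM-1), which binds ligands on tumor cells, was the lower one and 1 of these 2, above 0 in 8 of 36 and 4 of 10 cells (means 4.07 and 17.5 TP100K). Of 9 genes on the list of inhibitory receptors, 3 were higher (Klrg1, Lag3 and Klri2), 0 lower and the median was 0.38. Klrg1 and Lag3 passed only through the combination, and the place of Klri2 among inhibitory genes was not checked and may be wrong. Of 7 Ly49 genes, 2 were higher (Klra3 and Klra8), 0 lower and the median was 0.33. Downstream of the receptors, 2 of 18 adaptor and signaling genes were higher, 2 lower and the median was 0.22. Cd247, the zeta chain that carries signals from NKp46 and CD16, had means of 24.6 and 4.56 TP100K (log2 ratio 2.20), and Plcg2, a phospholipase downstream of activating receptors, 7.42 and 26.1 (−1.68). Among cytokine receptors and their signaling genes, 4 of 19 were higher and 3 lower, with a median of 0.00, and 4 passed through 1 treatment only. Il12rb1, a chain of the interleukin-12 receptor, had means of 4.22 and 22.01 TP100K. It was above 0 in 6 of 36 and 4 of 10 cells and passed only through the control. Cish, an inhibitor of interleukin-15 signaling, had means of 12.8 and 42.3 TP100K. Stat5b, which carries that signal, passed only through the combination. It was above 0 in 14 of 36 and 0 of 10 cells, and in 2 of 5 losartan cells.

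**Figure D5:**
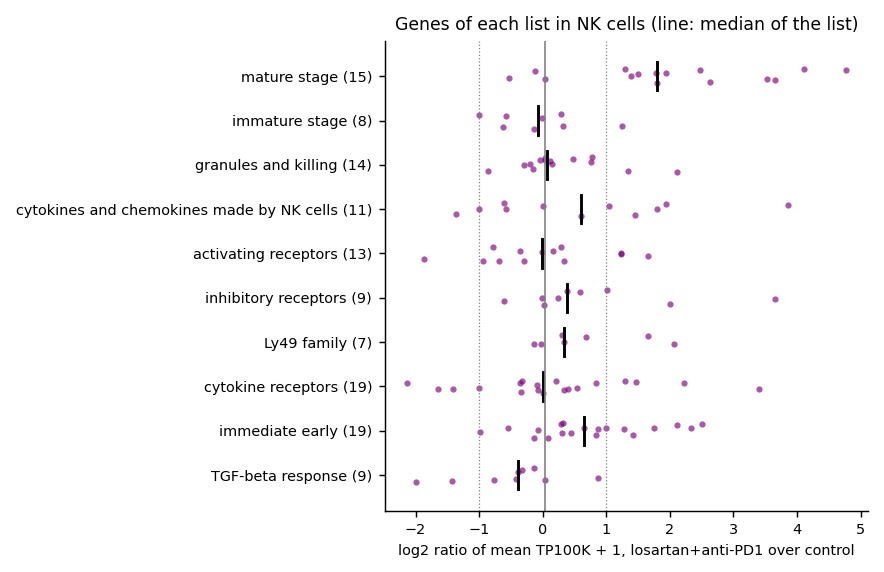
Log2 ratio of mean TP100K + 1, losartan+anti-PD1 over control (x axis), for each gene (point) of each list (y axis, with the number of genes), with a black line at the median of the list. The median of all genes is 0.03 and that of the mature-stage genes 1.80.

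RNA of other cell types differed between these NK cells in both directions. At least 1 of 5 phagocyte genes chosen after seeing the data (Lyz2, C1qa, C1qb, C1qc and Cd14) was above 0 in 4 of 10 control cells and in 0 of 36 cells with losartan+anti-PD1, but Ctss, the cathepsin S gene, was above 0 in 7 of 10 and 12 of 36 (means 22.96 and 5.89 TP100K). The macrophage and monocyte list, of which 12 of 13 genes were in the table, summed to 0 to 607 TP100K (median 5.56) in the control and 0 to 61.6 (median 0) with the combination, and Ms4a7, Mrc1 and Fcgr1 were at 0 in all NK cells. Summed microglia markers had medians of 0 in both and reached 42.3 TP100K in the control and 132.97 with the combination. Summed dendritic cell markers had medians of 1.36 and 10.8 TP100K, and of the 6 that passed, 2 were at least 2-fold higher with the combination (H2-Ab1 and Itgax, which NK cells can also express) and 1 lower (H2-Eb1). Without the 4 control cells that had a phagocyte gene, which left 36 and 6 cells, 12 of 15 mature-stage genes were at least 2-fold higher, with a median of 2.22. This step could remove control cells only, so it says nothing about such RNA in the combination. Summed T cell markers had medians of 1.32 TP100K in the control and 0.858 with the combination, and reached 44.4 and 163.6, most of it Cd28 in the highest cell (highest Cd28 163.6). Summed B cell markers did not exceed 3.58 TP100K in any cell of either treatment. Without cells that had Cd3d, Cd3e or Cd3g above 0, which left 26 and 7 cells, 11 of 14 mature-stage genes were at least 2-fold higher, with a median of 2.17. Neither this count nor that without the 4 control cells sets aside genes that passed only through losartan+anti-PD1, which had to differ. Among the losartan cells, C1qb reached 74.6, Ctss 171.9 and the microglia gene Tmem119 19.2 TP100K, and these genes were at 0 in both anti-PD1 cells. The Y-linked gene Eif2s3y was above 0 in 7 of 10 control, 2 of 5 losartan, 1 of 2 anti-PD1 and 16 of 36 losartan+anti-PD1 cells, and Xist did not exceed 0.918 TP100K in any NK cell.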

How the data were processed

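In all, 53 NK cells among the 240 cells of 4 CD45+ plates were analysed, and 838 columns of other sorts were not used. Per the methods, reads were split with bcl2fastq and aligned to mm10 with Bowtie, and RSEM (1.2.8 in the submitters' notes, another version in the paper) estimated expression. The authors required 1000 to 8000 genes in a cell and 20 or more housekeeping genes. They describe the deposited values as TPM, but on these plates the deposited values are expected counts: cells differ in their sums, and 72.3% of values above 0 in NK cells are exactly whole. Values under 1 count (2.52%) are shares of reads that match several genes, so levels of at least 5 TP100K are given where they matter. NK cells held 7946 to 875023 expected counts and 1592 to 5825 genes.

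Cells were scaled to 100000 without rounding (TP100K). Ratios are log2 of means after adding 1 TP100K, which understates changes of low genes. At least 2-fold means a log2 ratio of at least 1 or at most −1. Where 0 of n cells had a gene, 3/n is the share allowed. Named genes are members of 32 lists with the largest share of cells or ratio, or at 0 in all cells, the 10 highest and lowest ratios of losartan+anti-PD1 against control, and the 20 highest of NK cells against other CD45+ cells. Gzmc, Gzmk, Serpinb9, Klf2, Ifng and Nkg7 were among those named after their values were seen. The cells, lists and motifs were chosen with earlier results of these data known. Scripts were tested on simulated data. No NK cells had identical values. No doublet caller was run, since cells were sorted 1 per well, although some NK cells held RNA of other cell types. Zfp683, Ifit3b, Adgre1 and Ly6g of the lists are not among the 21765 genes used here. The alternatives were other pseudocounts, filters, scalings and subsets of cells. Tools were Python 3.11.15 with SciPy 1.17.1, NumPy 2.4.6, pandas 2.3.3 and matplotlib 3.10.9.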

Additional observations from a re-analysis of the deposited data

How the results depend on the processing

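No paired analysis was possible because each treatment was 1 plate. Among lymphoid cells the NK share was 73.5% with the combination, 58.8% in the control, 71.4% with losartan and 13.3% with anti-PD1. For losartan+anti-PD1 against control, 17.2% and 14.4% of 5306 genes were at least 2-fold higher and lower (910 and 762). These were 1.75% and 1.92% with a pseudocount of 10 TP100K, 17.8% and 11.4% of 12902 genes without the filter (2298 and 1469), 12.1% and 11.98% of 2505 with a filter of 50% of cells (303 and 300), and 28.7% and 8.39% with the highest cell of each treatment left out for each gene (1523 and 445), which is 1 of 10 control cells but 1 of 36 others. By the mean of log values 5.16% were higher and 9.57% lower, and the median of the immature-stage genes was −0.68 in place of −0.07 (0.24 in cells without Cd3d, Cd3e or Cd3g). Of the mature-stage genes, 12 of 15 were higher, 7 of 15 with a pseudocount of 10 (median 0.996 in place of 1.80), 4 of 7 with the 50% filter (median 1.30), and 1 was lower in cells without Cd3d, Cd3e or Cd3g. Their median lay between 0.996 and 2.33 in the alternatives run, of which cells without phagocyte markers and cells with at least 100000 counts were chosen after seeing the data. No alternative set aside the mature-stage genes that passed through 1 treatment only, so these values include genes that had to differ. Against other CD45+ cells, 9.30% and 16.9% of genes were higher and lower, but 2.69% and 4.70% with a pseudocount of 10, 14.04% higher without the losartan+anti-PD1 plate and 5.57% higher with scaling to the 75th percentile. Ltb, at −1.01, was at 0.23 with the highest cell left out and at 1.24 in cells without Cd3d, Cd3e or Cd3g. Of the log2 ratios of 56 named genes, 29 moved by over 1.5-fold by the mean of log values and 25 with a pseudocount of 10, whereas the filters and a narrower range of genes per cell leave a ratio as it is. The causes were not tested. With 10 control cells, a gene present in up to 30% of cells can be missed altogether.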

Other observations

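Immediate early genes, which respond both to receptor signals and to cell handling, gave 6 of 19 at least 2-fold higher with losartan+anti-PD1 than in the control, 0 lower and a median of 0.65 (log2), with 2 of the 19 detected in enough cells only with the combination. Nr4a1, an orphan receptor gene induced by receptor signaling in lymphocytes, had means of 49.4 and 7.85 TP100K, and Egr1 was above 0 in 16 of 36 and 2 of 10 cells. Btg2, a brake on proliferation, had medians of 77.96 (0 to 526) and 40.1 (0 to 104.7) TP100K. Fos and Jun had log2 ratios of 0.08 and 0.32. Of 11 heat shock and chaperone genes, 0 were 2-fold higher or lower (median −0.09), as were 0 of 14 genes of MHC class I and peptide loading (median 0.17). Of 25 interferon-induced genes 4 were higher and 3 lower (median −0.17, with 9 past the filter through 1 treatment only), of 12 glycolysis genes 3 were higher and 0 lower (median 0.28), and of 15 adhesion genes 3 were higher and 0 lower (median −0.08). The share of all genes was 17.2% higher and 14.4% lower.

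The list for TGF-β, a cytokine that restrains NK cells, held receptor and signaling genes such as Tgfbr2 and Smad3 beside response genes. Of 9 that passed, 0 were higher and 2 lower (median −0.39). These were Smad7, an inhibitor of that signal, with means of 1.29 and 5.19 TP100K with losartan+anti-PD1 and in the control, and Ahr, with 1.52 and 9.08. Each was above 0 in 6 of 36 and 4 of 10 cells and passed the filter only through the control, so that both had to differ, and 3 of the 9 genes passed through 1 treatment only. Bcl2, a survival gene, was above 0 in 29 of 36 and 10 of 10 cells, with medians of 55.1 (0 to 301) and 103.9 (22.6 to 277.9) TP100K. Cell cycle genes were scarce. Mki67 was above 0 in 2 of 36 cells of the combination, 1 of 5 losartan and 0 of 10 control cells, and Ccnb1, Ccnb2 and Nusap1 were at 0 in all 53.

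Outside the lists, Entpd1, the gene of the ectonucleotidase CD39, was above 0 in 16 of 36 cells with the combination and 3 of 10 in the control (means 25.2 and 0.347 TP100K). Ly6a (Sca-1) and the cytokine gene Osm were each above 0 in 12 of 36 and 1 of 10 cells, and both passed the filter only through the combination. The lowest log2 ratios were those of Cnot7 (−4.28; means 0.275 and 23.8 TP100K) and Itgav (−4.16; 0.160 and 19.7). Cnot7 was above 0 in 1 of 36 and 4 of 10 cells and Itgav in 5 of 36 and 4 of 10. Both passed only through the control. Over the 53 NK cells, the genes whose levels ranked most like those of Ncr1 among 1546 compared were Tob2, Ppp2r1a, Flna, H2afz and Ascc3 (Spearman rho 0.40 to 0.53, across sparse counts that share depth).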
